A study of Mus musculus with 12 samples.

Results

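Imprinted genes are described here across mouse ES cells and mouse embryos treated with an inhibitor of RNA polymerase I and 2 other stress inducers. The list held 42 genes of 17 imprinted loci, chosen by gene symbol, and 41 of them were found under that symbol among the 53715 genes of each table. The remaining gene, Rtl1, is spelled Rlt1 in the tables, where its identifier was listed at 0 in all 8 ES libraries and reached 0.00588 TPM (transcripts per 1000000) at most in the 4 embryo libraries. Genes with at least 1 TPM in at least 2 libraries of a table were tested, which kept 34 of the 41 genes in ES cells (17638 genes in all) and 24 of the 41 in embryos (13289 genes in all).

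An imprinted gene is expressed mainly from the copy inherited from 1 parent, because a control region nearby carries DNA methylation from only the egg or only the sperm. That methylation survives the genome-wide loss of methylation after fertilization, when zinc finger proteins such as ZFP57 bind the methylated control regions and recruit TRIM28, and it can erode when ES cells are kept in 2i medium. Many imprinted genes act in growth of the embryo and placenta, and several stay low in pluripotent cells and rise as cells differentiate or in mesenchymal cells such as fibroblasts. The values here are totals over both parental copies, so they do not show which copy was expressed.

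The study treated wild-type E14 mES cells with CX-5461 (an RNA polymerase I inhibitor), rapamycin (which blocks mTOR signalling) or rotenone (which blocks complex I of the respiratory chain), or left them untreated. C57BL/6J embryos were treated with CX-5461 or left untreated. Each of the 6 groups had 2 libraries. All ES groups grew on mouse embryonic fibroblast (MEF) feeder cells in LIF/2i medium, and the feeders were depleted before poly-A RNA was taken. By the study's methods, the embryos were treated as morulae and grown on to blastocysts, and each library came from amplified cDNA of several pooled embryos. ES cells and embryos are therefore set side by side without a test.

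Libraries of ES cells held 14521 to 17104 genes at 1 TPM or more, and those of embryos 12397 to 13703. The deposited values summed to 999805 to 999914 TPM except in embryo control 1, at 639063 TPM, and every library was rescaled to 1000000. TPM keeps no read counts, so the depth is unknown. The study's text calls the libraries of a group biologically independent, while its labels name no separate culture or litter. A p-value here measures only the spread between the 2 libraries of a group. That spread was pooled over all groups of a fit and drawn towards that of other tested genes of similar level. Pluripotency markers were present in ES cells (Pou5f1 861 to 1657 TPM, Nanog 624 to 838 TPM) and the trophectoderm keratin Krt8 in embryos (1403 to 2204 TPM).

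The core sequence that ZFP57 recognises in methylated control regions, TGCCGC, was searched on both strands of RefSeq promoter windows (250 bases before to 50 after each start, GRCm38.p6), since these loci are defined by their control regions. Of the 42 genes, 35 had a window and 13 of these (37.1%) held at least 1 match, against 3527 of all 27025 genes with a window (13.1%). Counted by window, since a gene can have several, 14 of 52 (26.9%) held a match, against 3813 of all 32851 (11.6%). The motif holds a CG, and the CG content of the windows was not matched. A match is a description of these letters, not a bound site. The 250 bases before the start are given for 4 paternally expressed genes that were called higher in both CX-5461 and rotenone against control and held a match there. They run 5′ to 3′, with the motif or its reverse complement GCGGCA in capitals.
Plagl1, chr10:13090582-13090831, + strand: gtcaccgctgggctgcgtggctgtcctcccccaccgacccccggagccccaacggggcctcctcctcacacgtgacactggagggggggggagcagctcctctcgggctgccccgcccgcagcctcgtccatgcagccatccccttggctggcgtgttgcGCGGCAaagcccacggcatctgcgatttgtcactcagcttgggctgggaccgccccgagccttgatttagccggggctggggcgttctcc
Mest, chr6:30737800-30738049, + strand: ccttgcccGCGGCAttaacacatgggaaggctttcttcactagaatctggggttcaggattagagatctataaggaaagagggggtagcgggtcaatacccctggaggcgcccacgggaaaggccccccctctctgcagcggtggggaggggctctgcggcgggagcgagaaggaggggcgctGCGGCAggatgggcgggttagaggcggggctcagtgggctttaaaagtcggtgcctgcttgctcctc
Nap1l5, chr6:58907127-58907376, - strand: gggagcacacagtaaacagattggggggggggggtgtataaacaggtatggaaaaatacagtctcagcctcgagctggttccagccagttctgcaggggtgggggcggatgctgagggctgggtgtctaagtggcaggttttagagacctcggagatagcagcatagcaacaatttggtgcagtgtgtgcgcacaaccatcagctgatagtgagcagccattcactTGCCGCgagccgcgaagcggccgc
Zdbf2, chr1:63200108-63200357, + strand: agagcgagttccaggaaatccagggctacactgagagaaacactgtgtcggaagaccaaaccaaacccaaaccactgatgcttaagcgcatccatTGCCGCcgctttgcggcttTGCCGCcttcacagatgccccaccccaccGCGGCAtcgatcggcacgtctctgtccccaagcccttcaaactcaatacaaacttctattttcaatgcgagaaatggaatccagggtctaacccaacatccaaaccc
The Zdbf2 stretch, before the most upstream of that gene's RefSeq starts, held 3 matches and the Mest stretch 2. The windows of Peg3 and Usp29, which point away from each other on chromosome 7 and overlap, held none.

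The first comparison asked how imprinted genes responded when ribosomal RNA synthesis was inhibited in mES cells. Of the 34 genes tested, 22 were higher and 4 were lower in CX-5461-treated than in control mES cells, and 8 did not pass the test (limma on log2(TPM + 1), Benjamini-Hochberg adjusted p under 0.05). Of all genes tested, 42.0% were called higher and 11.0% lower. The median log2 fold change was 1.01 over the imprinted genes and 0.43 over all genes. Of 17 genes listed as paternally expressed, 13 were higher and 1 lower (median 1.59). Of 16 listed as maternally expressed, 9 were higher and 3 lower (median 0.75). These labels belong to the gene list, and the copy expressed in these cells was not measured. Where libraries were scaled by median ratio in place of total TPM, the all-gene median came to 0.03, the share of higher genes among all those called was 51.7% in place of 79.3%, and 19 imprinted genes were higher and 4 lower. Quantile scaling gave an all-gene median of −0.07, a share of 46.0%, and 19 higher and 5 lower.

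Rotenone gave equal counts of imprinted genes, with 22 higher and 4 lower than in controls, against 30.6% and 9.57% of all genes, and medians of 0.75 for imprinted genes and 0.27 for all genes. The genes listed as paternally expressed had a median of 1.04 (13 higher, 2 lower) and those listed as maternally expressed of 0.47 (9 higher, 2 lower). Scaling mattered more here. Under both median-ratio and quantile scaling 14 imprinted genes were higher and 5 lower. The share of higher genes among all those called was 76.2% by total TPM, 50.2% by median ratio and 48.9% by quantile scaling. With rapamycin, limma called no imprinted gene in either direction (0 of all genes higher and 0.0113% lower). The median was 0.15 against 0.13 for all genes. An unadjusted p under 0.05 was reached by 8 imprinted genes, beside 1842 genes higher and 509 lower of all 17638. The 3 comparisons share the control libraries, so their values stand side by side and are not independent of each other.

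**Figure D1:**
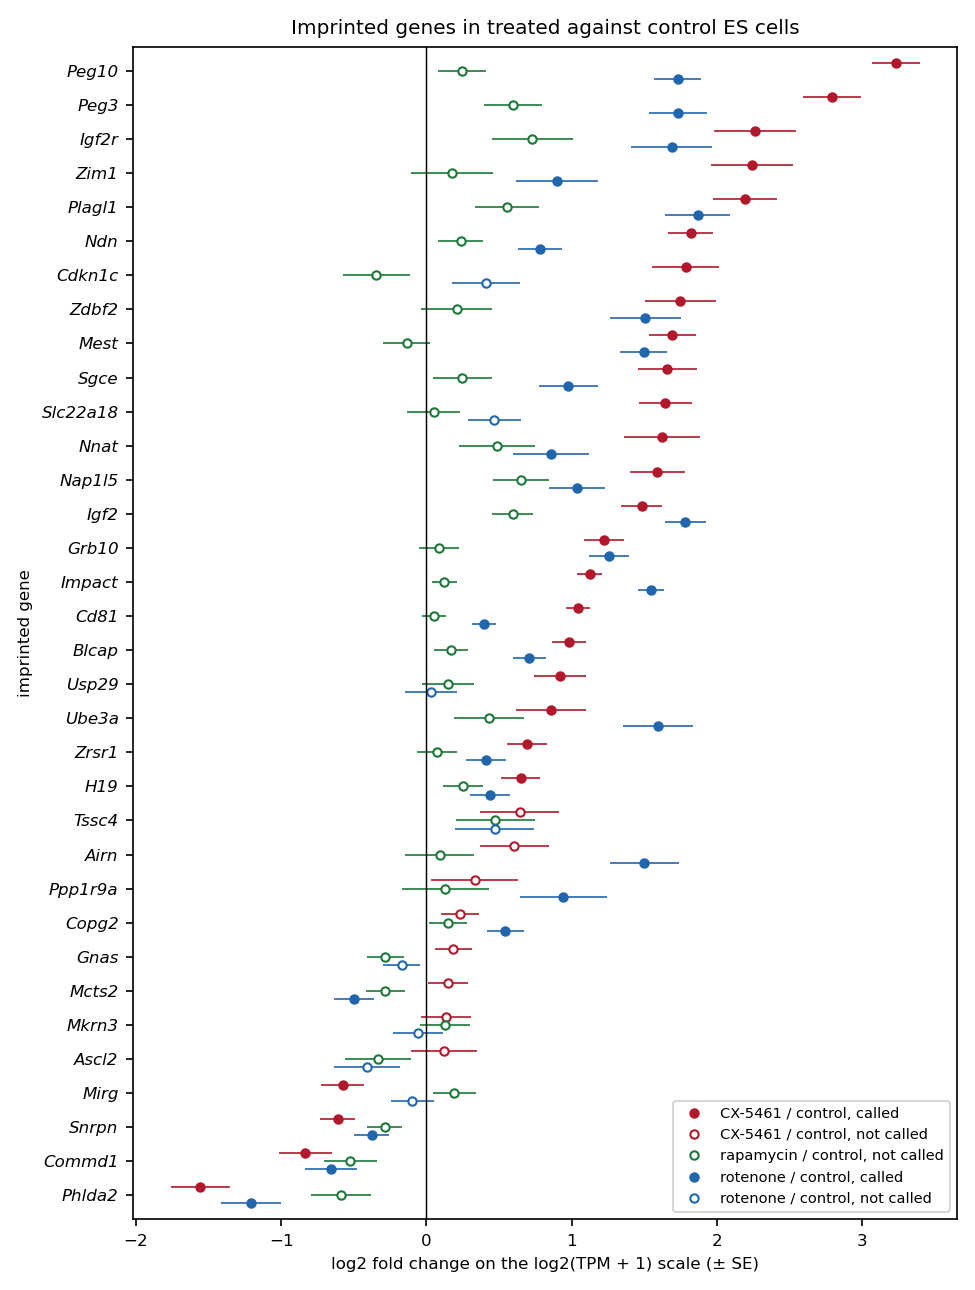
Log2 fold changes (± SE) of the 34 imprinted genes tested in ES cells, ordered by the change with CX-5461, with filled points for called genes and open points for the others. Peg10 and Peg3 stand at the top for CX-5461 (3.23 and 2.79), Phlda2 at the bottom (−1.56), and all rapamycin points are open.

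Fibroblast markers, which would report feeder cells left in the RNA, moved with these results. Of 29 measured markers, 27 were higher with CX-5461 (median log2 fold change 1.74), and 27 with rotenone (1.67). With rapamycin limma called none (median 0.65, 20 at an unadjusted p under 0.05). Their summed level was 5039 and 5268 TPM with CX-5461, 2476 and 2084 TPM with rapamycin, 4481 and 4848 TPM with rotenone, and 1186 and 1412 TPM in controls. The collagen gene Col1a1 stood at 1062 and 1103 TPM with CX-5461, 603 and 435 TPM with rapamycin, 823 and 908 TPM with rotenone, and 221 and 305 TPM in controls. Primitive endoderm markers also moved (7 of 9 tested higher with CX-5461 and 7 of 9 with rotenone). Their summed level was 273 and 297 TPM with CX-5461, 159 and 109 TPM with rapamycin, 241 and 242 TPM with rotenone, and 59.9 and 91.9 TPM in controls. In that list, Gata6 had 11.6 and 12.3 TPM with CX-5461 against 0.753 and 0.540 TPM in controls. Sox17 had 5.62 and 6.18 TPM against 0.342 and 1.11 TPM, and Gata4 1.55 and 2.01 TPM against 1.39 and 1.62 TPM. The list also holds laminin and collagen genes, and which cells made their RNA was not tested. The summed level of pluripotency markers was 4783 and 4888 TPM with CX-5461, 7058 and 7256 TPM with rapamycin, 6097 and 6153 TPM with rotenone, and 7114 and 7231 TPM in controls, with 1 of 10 higher and 5 lower with CX-5461 and 2 higher and 3 lower with rotenone. Trophectoderm markers summed to 165 and 166 TPM with CX-5461, 123 and 122 TPM with rapamycin, 131 and 134 TPM with rotenone, and 119 and 136 TPM in controls, with 5 of 9 tested higher and 1 lower with CX-5461 and 4 higher and 0 lower with rotenone. The part of these other cell types in the changes of imprinted genes was not tested. In bulk RNA, fewer cells of a type and less RNA per cell cannot be told apart.

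**Figure D2:**
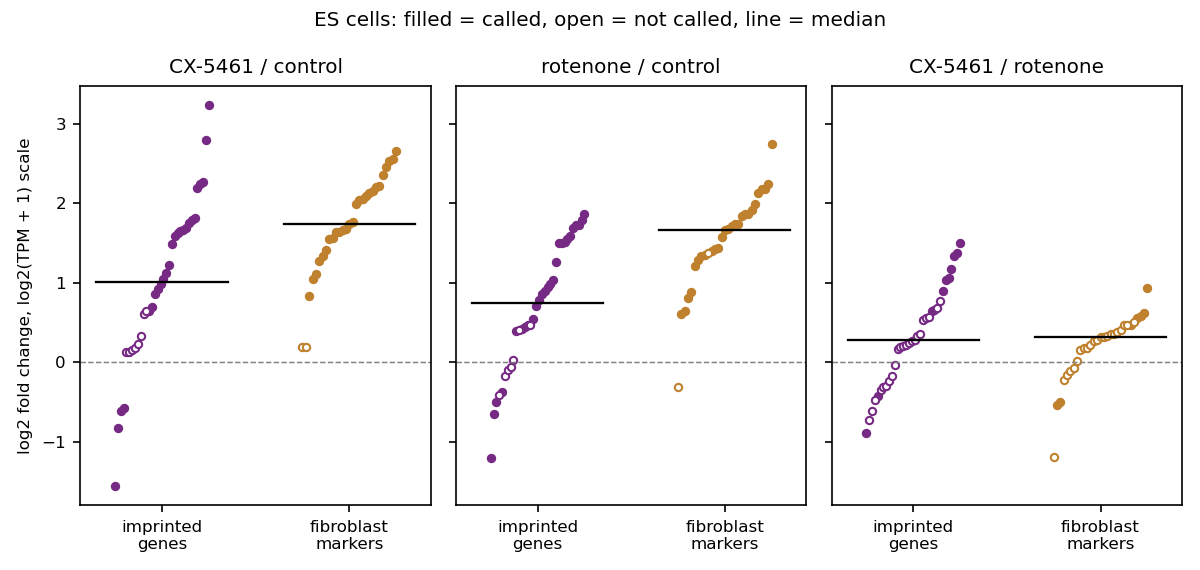
Log2 fold changes of the imprinted genes and of the fibroblast markers in 3 comparisons of ES cells (filled points called, open points not called, line at the median). Fibroblast markers are high in both treatments against control (medians 1.74 and 1.67), while CX-5461 against rotenone has medians of 0.28 for imprinted genes and 0.32 for fibroblast markers.

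On the log2(TPM + 1) scale, which understates changes of low genes, the largest change of the list in ES cells was at the locus of Peg10 and Sgce on chromosome 6. Among the alternatives, the CX-5461 change of the low gene Zim1 reached 4.33 and that of Peg10 3.54. Peg10 (chr6:4747306-4760517, GRCm38), a gene derived from a retrotransposon and needed for the placenta, had 36.7 and 41.5 TPM with CX-5461, 4.43 and 3.69 TPM with rapamycin, 13.8 and 12.5 TPM with rotenone, and 2.95 and 3.59 TPM in controls. Its log2 fold change was 3.23 ± 0.16 (SE) with CX-5461 (limma adjusted p = 4.43e-05) and 1.73 ± 0.16 with rotenone (adjusted p = 0.000967), or 2.81 and 1.46 relative to the median of all genes. Its divergent neighbour Sgce (chr6:4674350-4747207), which encodes epsilon-sarcoglycan, had 19.5 and 16.9 TPM with CX-5461, 6.13 and 6.24 TPM with rapamycin, 10.5 and 11.4 TPM with rotenone, and 6.29 and 4.03 TPM in controls. Sgce rose by 1.66 ± 0.20 with CX-5461 (adjusted p = 0.000710) and by 0.98 ± 0.20 with rotenone (adjusted p = 0.0108). The rotenone call of Sgce was lost under median-ratio and quantile scaling and without rotenone library 1 or 2 (adjusted p up to 0.184). The 2 maternally expressed genes of the locus stayed low. Ppp1r9a, which encodes the actin-binding protein neurabin, ranged from 1.39 to 5.17 TPM over the ES libraries and was called with rotenone only (0.94 ± 0.30, adjusted p = 0.0429), a call lost when any 1 of the 4 libraries of that contrast was left out (adjusted p up to 0.184). Asb4, which encodes a protein with a SOCS box, did not exceed 0.698 TPM.

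At the Peg3 locus on chromosome 7, the zinc finger gene Peg3 (chr7:6703892-6730431) had 53.1 and 68.5 TPM with CX-5461, 14.5 and 10.5 TPM with rapamycin, 29.1 and 27.5 TPM with rotenone, and 7.06 and 8.69 TPM in controls. The changes were 2.79 ± 0.20 with CX-5461 (limma adjusted p = 9.5e-05) and 1.73 ± 0.20 with rotenone (adjusted p = 0.0016), and no treated library of either group overlapped the controls. Usp29 (chr7:6730578-6967219), a deubiquitinase gene that starts beside Peg3 on the other strand, reached 5.05 TPM at most and was called with CX-5461 (0.92 ± 0.18, adjusted p = 0.00519) but not with rotenone (0.03 ± 0.18). Quantile scaling removed the Usp29 call (0.19, adjusted p = 0.404). Zim1, a maternally expressed zinc finger gene of the locus, had 3.66 and 5.01 TPM with CX-5461 against 0.0928 and 0.147 TPM in controls (2.24 ± 0.28, adjusted p = 0.000815). Its rotenone libraries stood apart from each other, at 1.75 and 0.589 TPM, and that change (0.90 ± 0.28, adjusted p = 0.0415) was lost under 6 alternatives. Rapamycin libraries had 0.342 and 0.198 TPM of Zim1.

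At the H19-Igf2 locus, both genes of the pair rose, although they are expressed from opposite parental copies. Igf2 (chr7:142650766-142666816), the fetal insulin-like growth factor, had 282 and 279 TPM with CX-5461, 148 and 154 TPM with rapamycin, 298 and 400 TPM with rotenone, and 95.8 and 104 TPM in controls. The noncoding RNA H19 (chr7:142575529-142578143) had 177 and 162 TPM with CX-5461, 117 and 140 TPM with rapamycin, 132 and 162 TPM with rotenone, and 108 and 107 TPM in controls. Igf2 changed by 1.48 ± 0.14 with CX-5461 (limma adjusted p = 0.000263) and by 1.78 ± 0.14 with rotenone (adjusted p = 0.000597). For H19 the changes were smaller, at 0.65 ± 0.14 with CX-5461 (adjusted p = 0.00676) and 0.44 ± 0.14 with rotenone (adjusted p = 0.0397). The CX-5461 call of H19 was lost under median-ratio scaling (0.17, adjusted p = 0.462), and the rotenone call under that and 9 further alternatives. The balance of the pair therefore differed between groups, since log2(TPM + 1) of Igf2 minus that of H19 was 0.67 and 0.78 in CX-5461 libraries, 0.33 and 0.14 in rapamycin libraries, 1.17 and 1.3 in rotenone libraries, and −0.17 and −0.05 in controls.

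Igf2r (chr17:12682406-12769664), the maternally expressed receptor that clears IGF2, had 101 and 118 TPM with CX-5461, 45.2 and 30.6 TPM with rapamycin, 72.1 and 74.3 TPM with rotenone, and 16.5 and 29.3 TPM in controls. It rose by 2.26 ± 0.28 with CX-5461 (limma adjusted p = 0.000761) and by 1.69 ± 0.28 with rotenone (adjusted p = 0.00513). Airn, the antisense noncoding RNA that silences the paternal Igf2r copy, was at 1.28 and 1.02 TPM with CX-5461, 0.849 and 0.216 TPM with rapamycin, 3.33 and 2.67 TPM with rotenone, and 0.361 and 0.456 TPM in controls. Airn was called with rotenone (1.50 ± 0.24, adjusted p = 0.00446) and not with CX-5461 (0.61 ± 0.24, adjusted p = 0.0676). With the 2 groups fitted alone, limma did call its CX-5461 change (adjusted p = 0.0390). The genes overlap on opposite strands and the sources used here do not state that strand was used in quantification, so reads of one could be given to the other.

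The Kcnq1 domain on chromosome 7 held genes that moved in opposite directions. Cdkn1c (chr7:143458339-143461050), which encodes the cell cycle inhibitor p57, had 26.3 and 23.3 TPM with CX-5461, 3.82 and 6.18 TPM with rapamycin, 10.4 and 7.64 TPM with rotenone, and 6.39 and 6.54 TPM in controls. It rose by 1.79 ± 0.23 with CX-5461 (limma adjusted p = 0.000931) and was not called with rotenone (0.41 ± 0.23, adjusted p = 0.195). Slc22a18 (chr7:143473736-143499334), a transporter gene, followed with 20.9 and 18.9 TPM with CX-5461, 6.29 and 5.56 TPM with rapamycin, 9.39 and 7.19 TPM with rotenone, and 5.12 and 6.28 TPM in controls (CX-5461 1.64 ± 0.18, adjusted p = 0.000493). The rotenone change of Slc22a18, at 0.47 ± 0.18, was not called (adjusted p = 0.0797). Cd81 (chr7:143052739-143067934), a tetraspanin gene and the most abundant of the list in ES cells, had 754 and 738 TPM with CX-5461, 370 and 377 TPM with rapamycin, 452 and 499 TPM with rotenone, and 373 and 348 TPM in controls. Cd81 rose by 1.05 ± 0.08 with CX-5461 (adjusted p = 0.000137) and by 0.40 ± 0.08 with rotenone (adjusted p = 0.0109), the second of which was lost under median-ratio scaling (0.06, adjusted p = 0.747) and without rotenone library 2.

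Phlda2 (chr7:143501545-143503150), a maternally expressed gene that restrains placental growth, lies next to Slc22a18 and was the most lowered gene of the list. Its levels were 11 and 9.48 TPM with CX-5461, 19 and 23.0 TPM with rapamycin, 10.8 and 16.2 TPM with rotenone, and 32.2 and 31.7 TPM in controls. It fell by 1.56 on the log2 scale with CX-5461 (SE 0.20, limma adjusted p = 0.000966) and by 1.21 with rotenone (SE 0.20, adjusted p = 0.00549), and none of the 6 treated libraries overlapped the controls, although the rapamycin change of −0.59 was not called (adjusted p = 0.335). Of the rest of the domain, Tssc4 (27.4 to 58.1 TPM) and the trophoblast transcription factor gene Ascl2 (2.09 to 4.48 TPM) were not called against control. With the 2 groups fitted alone, limma called Tssc4 higher with CX-5461 (0.64, adjusted p = 0.0487). The potassium channel gene Kcnq1 (at most 0.272 TPM) and the noncoding RNA of the domain, Kcnq1ot1 (0.185 to 0.602 TPM), were below the level that was tested.

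**Figure D3:**
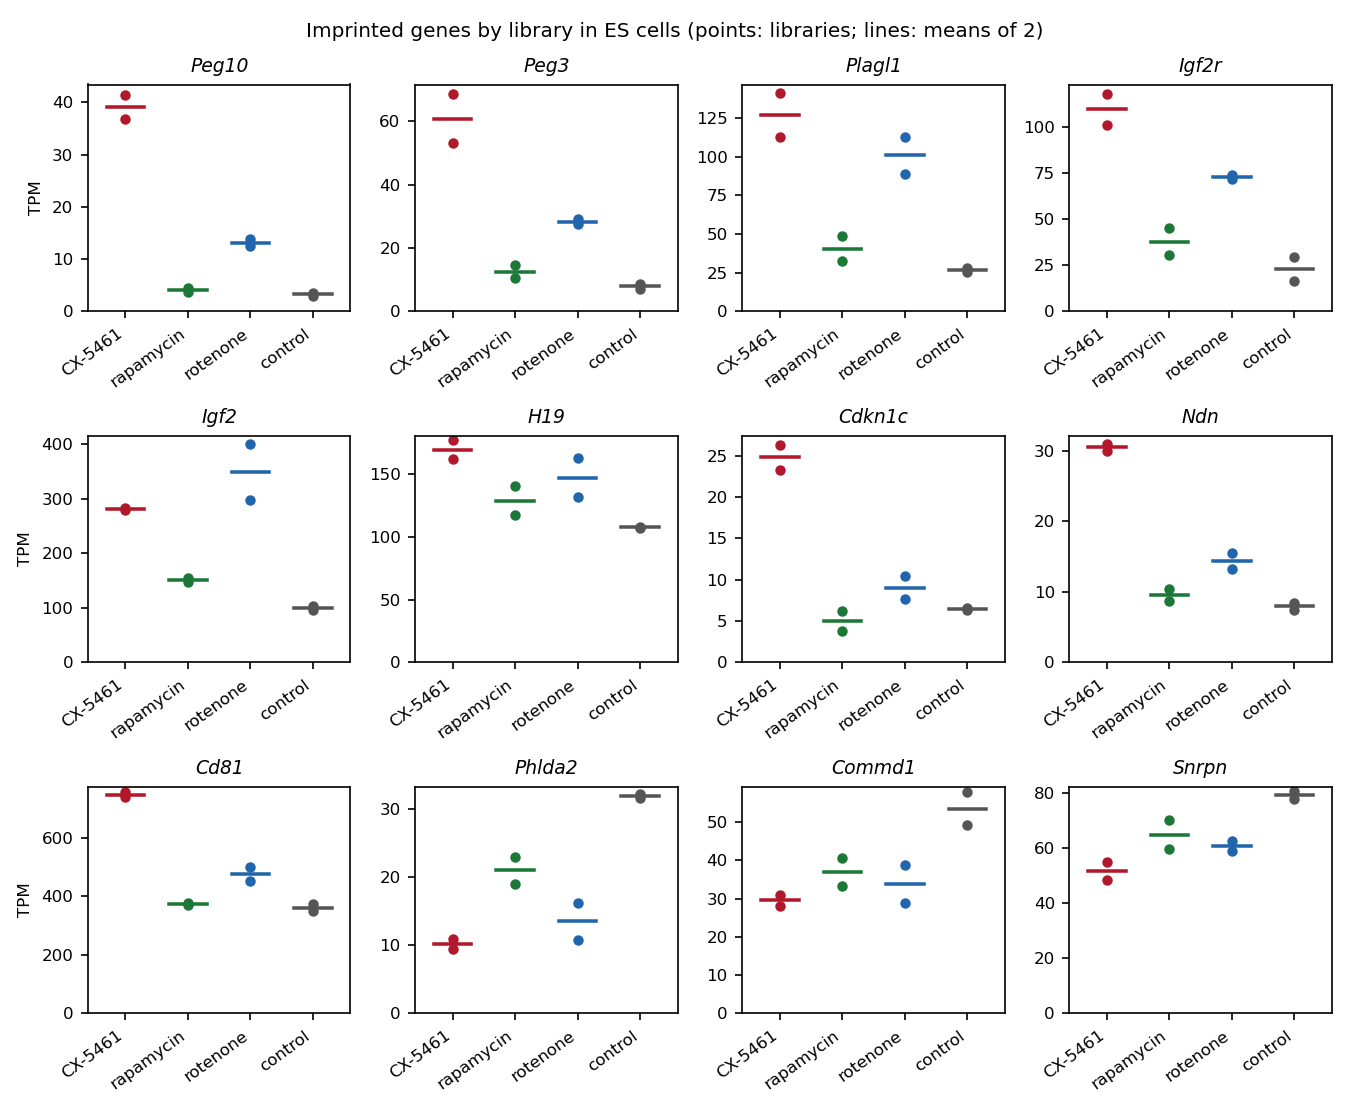
TPM of 12 imprinted genes in each ES library (points) with the mean of the 2 libraries of a group (lines), each axis starting at 0. The CX-5461 points of Peg10, Peg3, Cdkn1c, Ndn and Cd81 lie above every other library, and the control points of Phlda2, Commd1 and Snrpn above every treated library.

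Among the loci with 1 or 2 listed genes, Plagl1 (chr10:13060504-13131694), whose zinc finger product regulates other imprinted genes, had 112 and 141 TPM with CX-5461, 48.5 and 32.4 TPM with rapamycin, 113 and 88.7 TPM with rotenone, and 25.1 and 28.3 TPM in controls. It rose by 2.20 ± 0.22 with CX-5461 (limma adjusted p = 0.000339) and by 1.87 ± 0.22 with rotenone (adjusted p = 0.00172). Mest (chr6:30723547-30748465), a mesoderm gene that encodes a hydrolase-like protein, had 63.5 and 61.6 TPM with CX-5461, 17.2 and 16.6 TPM with rapamycin, 57.9 and 51.2 TPM with rotenone, and 15.9 and 21.9 TPM in controls. Mest rose by 1.69 ± 0.16 with CX-5461 (adjusted p = 0.000276) and by 1.50 ± 0.16 with rotenone (adjusted p = 0.00139), while its neighbour Copg2, which overlaps its end on the other strand, was called only with rotenone (0.54, adjusted p = 0.0169). Copg2, a coatomer subunit gene, had 42.6 and 44.0 TPM with CX-5461, 44.3 and 37.7 TPM with rapamycin, 53.4 and 54.7 TPM with rotenone, and 33.9 and 39.8 TPM in controls, and its rotenone call was lost under median-ratio and quantile scaling and without control library 1, rotenone library 1 or rotenone library 2 (adjusted p up to 0.108).

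Zdbf2 (chr1:63273265-63314576), a paternally expressed gene linked to growth after birth, had 22.6 and 35 TPM with CX-5461, 10.6 and 7.65 TPM with rapamycin, 25.9 and 21.6 TPM with rotenone, and 8.05 and 7.30 TPM in controls. Its changes were 1.75 ± 0.24 with CX-5461 (limma adjusted p = 0.00122) and 1.51 ± 0.24 with rotenone (adjusted p = 0.00469). Grb10 (chr11:11930508-12038683), an adaptor that dampens insulin receptor signalling, had 90.9 and 104 TPM with CX-5461, 48.1 and 39.6 TPM with rapamycin, 100 and 98.8 TPM with rotenone, and 38.3 and 44.0 TPM in controls. Grb10 was higher with both treatments (1.22 ± 0.14, adjusted p = 0.000491 with CX-5461, and 1.26 ± 0.14, adjusted p = 0.00136 with rotenone). Impact, which encodes an inhibitor of the translation kinase GCN2, had 200 and 216 TPM with CX-5461, 108 and 99.2 TPM with rapamycin, 279 and 279 TPM with rotenone, and 94.9 and 94.6 TPM in controls. It rose by 1.12 ± 0.09 with CX-5461 (adjusted p = 0.000133) and by 1.55 ± 0.09 with rotenone (adjusted p = 0.000350).

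Both genes of the Nnat locus and the retrogene Nap1l5 were higher with CX-5461 and with rotenone. Nnat (chr2:157560078-157562522), which encodes the neuronal protein neuronatin, had 4.93 and 7.46 TPM with CX-5461, 2.88 and 1.69 TPM with rapamycin, 2.72 and 3.67 TPM with rotenone, and 1.24 and 1.36 TPM in controls (CX-5461 1.62 ± 0.26, limma adjusted p = 0.0023). Blcap, in whose intron Nnat lies on the other strand, had 79.2 and 83.1 TPM with CX-5461, 47.1 and 44.6 TPM with rapamycin, 67.4 and 66.8 TPM with rotenone, and 37.2 and 44.4 TPM in controls (CX-5461 0.98 ± 0.12, adjusted p = 0.000631). With rotenone, Blcap rose by 0.71 ± 0.12 (adjusted p = 0.00486), and Nnat by 0.86 ± 0.26 (adjusted p = 0.0385), a call that was lost under 8 alternatives, with an adjusted p of up to 0.174. Nap1l5 (chr6:58905233-58907076), a retrogene of a nucleosome assembly gene family, had 5.50 and 4.88 TPM with CX-5461, 2.64 and 1.86 TPM with rapamycin, 3.29 and 3.13 TPM with rotenone, and 0.892 and 1.22 TPM in controls. Nap1l5 rose by 1.59 ± 0.19 with CX-5461 (adjusted p = 0.000670) and by 1.04 ± 0.19 with rotenone (adjusted p = 0.00735). Being a retrogene, Nap1l5 could share reads with related copies.

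The Snrpn-Ube3a locus on chromosome 7, the mouse counterpart of the Prader-Willi and Angelman region, split. Ndn (chr7:62346569-62350262), which encodes the growth suppressor necdin, had 31.0 and 30.0 TPM with CX-5461, 8.71 and 10.4 TPM with rapamycin, 15.5 and 13.3 TPM with rotenone, and 8.44 and 7.44 TPM in controls. It rose by 1.82 ± 0.15 with CX-5461 (limma adjusted p = 0.000171) and by 0.78 ± 0.15 with rotenone (adjusted p = 0.0088), the second being lost under median-ratio and quantile scaling and without rotenone library 1 (adjusted p up to 0.246). Snrpn (chr7:59982495-60140219), which encodes a spliceosomal protein and overlaps Snurf on the same strand, had 55.0 and 48.4 TPM with CX-5461, 59.8 and 70.0 TPM with rapamycin, 62.5 and 59.1 TPM with rotenone, and 80.8 and 77.8 TPM in controls. Snrpn fell by 0.61 with CX-5461 (SE 0.12, adjusted p = 0.00524) and by 0.38 with rotenone (SE 0.12, adjusted p = 0.0432), the rotenone call being lost without any 1 of the 4 libraries (adjusted p up to 0.181). Ube3a (chr7:59228750-59311536), the ubiquitin ligase gene of the locus, had 14.2 and 20.6 TPM with CX-5461, 12.5 and 12.4 TPM with rapamycin, 30.0 and 28.2 TPM with rotenone, and 7.13 and 11.2 TPM in controls. For Ube3a the rotenone change was 1.59 ± 0.24 (adjusted p = 0.00384), while the CX-5461 change of 0.86 ± 0.24 (adjusted p = 0.0215) was lost without control library 1 (adjusted p = 0.0909), without CX-5461 library 2 (adjusted p = 0.134), with the 2 groups fitted alone and under median-ratio and quantile scaling (adjusted p up to 0.451). The ring finger gene Mkrn3 (2.72 to 3.58 TPM) was not called, and under quantile scaling its CX-5461 change was −0.61 (adjusted p = 0.0142) in place of 0.13. Magel2, whose product acts in protein recycling at endosomes, stayed at or under 0.588 TPM.

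Zrsr1 and Commd1 are a pair in which the first lies in an intron of the second on the other strand. Commd1 (chr11:22896136-22982382), a copper and trafficking gene, had 31.0 and 28.1 TPM with CX-5461, 33.3 and 40.7 TPM with rapamycin, 28.8 and 38.8 TPM with rotenone, and 57.8 and 49.2 TPM in controls. Commd1 fell by 0.83 with CX-5461 (SE 0.18, limma adjusted p = 0.00775) and by 0.66 with rotenone (SE 0.18, adjusted p = 0.027). Without CX-5461 library 2 the adjusted p of the first was 0.0560, and the second was lost without control library 1, without rotenone library 1, with no filter and with the 2 groups fitted alone. Zrsr1 (chr11:22972005-22976496), a splicing factor retrogene, had 64.0 and 65.8 TPM with CX-5461, 39.5 and 44.1 TPM with rapamycin, 52.6 and 53.7 TPM with rotenone, and 35.1 and 44.8 TPM in controls. Zrsr1 rose by 0.70 ± 0.14 with CX-5461 (adjusted p = 0.00536), which median-ratio and quantile scaling did not keep (adjusted p up to 0.156), and its rotenone change of 0.41 ± 0.14 was at the threshold (adjusted p = 0.0498) and lost under 10 alternatives. Within a library, log2(TPM + 1) of Zrsr1 minus that of Commd1 was 1.02 and 1.20 in CX-5461 libraries, 0.24 and 0.11 in rapamycin libraries, 0.84 and 0.46 in rotenone libraries, and −0.70 and −0.13 in controls. The order of the 2 genes thus turned round in all 6 treated libraries, though limma called neither gene with rapamycin. The 2 genes overlap on opposite strands and Gm28048 overlaps Commd1 on the same strand, so reads of one gene could be given to another.

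The retrogene Mcts2, in an intron of H13, had 53.9 and 55.2 TPM with CX-5461, 37.5 and 43.2 TPM with rapamycin, 36.7 and 32.5 TPM with rotenone, and 53.8 and 44.9 TPM in controls. It fell by 0.50 with rotenone (SE 0.14, limma adjusted p = 0.0268), a call lost with the 2 groups fitted alone and without control library 1, rotenone library 1 or rotenone library 2 (adjusted p up to 0.142), and its CX-5461 change was 0.15 ± 0.14. Gnas, which encodes the stimulatory G protein alpha subunit and several other transcripts of either parental origin, ranged from 172 to 253 TPM and was not called against control. At the Dlk1-Meg3 locus on chromosome 12, Dlk1, a membrane regulator of cell differentiation, was listed at 0 in all 12 libraries, and the maternally expressed noncoding RNAs Meg3 and Rian did not exceed 0.113 and 0.0751 TPM in ES cells. Mirg, the noncoding RNA farthest along the same strand (chr12:109729764-109749460), was by contrast at 19.4 and 21.7 TPM with CX-5461, 40.0 and 31.8 TPM with rapamycin, 29.9 and 28.2 TPM with rotenone, and 29.1 and 33.1 TPM in controls. Mirg fell by 0.58 with CX-5461 (SE 0.15, adjusted p = 0.0162), a call lost without control library 2, CX-5461 library 1 or CX-5461 library 2 (adjusted p 0.0511 to 0.0898). The many small RNA genes annotated inside Mirg could take or give reads.

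CX-5461 was then set against rotenone, whose summed fibroblast marker level was close to that of CX-5461 (5039 and 5268 TPM with CX-5461, 4481 and 4848 TPM with rotenone), with 5 of 29 markers higher and 2 lower. Other markers differed too, with 4 of 9 trophectoderm markers higher and 2 lower, 3 of 9 primitive endoderm markers higher and 1 lower, and 1 of 10 pluripotency markers higher and 2 lower. Their part in the imprinted gene differences was not tested. Of the 34 imprinted genes, 9 were higher and 2 lower with CX-5461 than with rotenone, against 17.2% and 4.93% of all genes, and the medians were 0.28 for imprinted genes and 0.12 for all genes. The largest differences on the log2(TPM + 1) scale were those of Peg10 (1.50 ± 0.16, limma adjusted p = 0.00145), Cdkn1c (1.38 ± 0.23, adjusted p = 0.00713) and Zim1 (1.34 ± 0.28, adjusted p = 0.0164). Slc22a18 (1.18 ± 0.18, adjusted p = 0.00514), Peg3 (1.06 ± 0.20, adjusted p = 0.0105) and Ndn (1.04 ± 0.15, adjusted p = 0.00431) came next. Usp29 (0.89 ± 0.18, adjusted p = 0.0142), Cd81 (0.65 ± 0.08, adjusted p = 0.00252) and Mcts2 (0.65 ± 0.14, adjusted p = 0.0165) were also higher, and Airn (−0.90 ± 0.24, adjusted p = 0.037) and Impact (−0.43 ± 0.09, adjusted p = 0.0154) were lower. Of these 11 calls, 3 were kept under every alternative, those of Peg10, Ndn and Cd81, and leaving out single libraries left 4 to 6 genes higher and 0 to 1 lower. Under both median-ratio and quantile scaling 8 were higher and 5 lower, and the share of higher genes among all those called was 60.0% and 53.0% in place of 77.7%. Phlda2, near Cdkn1c in the Kcnq1 domain, was not called (−0.35 ± 0.20, adjusted p = 0.274).

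Against rapamycin, CX-5461-treated mES cells had 22 imprinted genes higher and 2 lower, where 30.9% of all genes were higher and 8.76% lower, with medians of 0.85 for imprinted genes and 0.26 for all genes. Peg10 again had the largest difference on the log2(TPM + 1) scale (2.99 ± 0.16, limma adjusted p = 7.37e-05), followed by Peg3 (2.20 ± 0.20, adjusted p = 0.000321) and Cdkn1c (2.13 ± 0.23, adjusted p = 0.000660). Cell type markers also differed here, with 27 of 29 fibroblast markers higher (median 1.22), 7 of 9 primitive endoderm markers higher and 1 lower, 5 of 9 trophectoderm markers higher and 1 lower, and 0 of 10 pluripotency markers higher and 5 lower. Their part was not tested. Median-ratio scaling gave 19 higher and 3 lower imprinted genes and quantile scaling 18 higher and 4 lower, with 54.6% and 48.0% of all called genes higher in place of 77.9%.

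In embryos treated with CX-5461, limma called no imprinted gene higher or lower among the 24 tested, and 0.00753% and 0 of all 13289 genes. An unadjusted p under 0.05 was reached by 7 imprinted genes, beside 1151 genes higher and 495 lower of all 13289. The median log2 fold change was 0.32 over imprinted genes and 0.05 over all genes. For 10 of the 24 genes both treated libraries lay above both controls, as for 27.6% of all genes, and for 4 both lay below, as for 19.2% of all genes. Fibroblast markers summed to 12.1 and 11.6 TPM in treated embryos and 11.6 and 11.6 TPM in control embryos, and Col1a2, Col3a1, Prrx1 and Twist2 were at or near 0 in all 4 libraries. Trophectoderm markers summed to 4500 and 6381 TPM in treated embryos and 4849 and 4791 TPM in control embryos, and primitive endoderm markers to 299 and 447 TPM in treated embryos and 319 and 335 TPM in control embryos. Pluripotency markers summed to 9412 and 7607 TPM in treated embryos and 7559 and 6793 TPM in control embryos. Of the 10, 5 had a log2 fold change above 0. Pou5f1 stood at 38.1 and 44.3 TPM in treated and 77.2 and 52.6 TPM in control embryos, and Nanog at 86.1 and 122 TPM against 157 and 204 TPM. Limma called no trophectoderm, primitive endoderm or pluripotency marker (10, 8 and 10 tested, with 2 of each list at an unadjusted p under 0.05). Their part in the imprinted gene changes was not tested.

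On the log2(TPM + 1) scale, the 2 largest embryo fold changes were in the Kcnq1 domain. Phlda2 had 15.3 and 38.0 TPM in CX-5461-treated embryos, against 3.01 and 0.365 TPM in control embryos (3.43 ± 0.59, limma adjusted p = 0.125). Cd81 had 83 and 89.1 TPM in treated embryos, against 13.7 and 23.7 TPM in control embryos (2.19 ± 0.33, adjusted p = 0.0981). For these 2 genes the treated libraries stood apart from the controls, and the adjusted p did not pass the threshold in the fit of all 4 libraries. Cdkn1c had 7.17 and 5.19 TPM in treated embryos and 1.83 and 1.50 TPM in control embryos (1.42 ± 0.31, adjusted p = 0.191). Slc22a18 had 7.27 and 6.00 TPM in treated embryos and 3.04 and 1.60 TPM in control embryos (1.23 ± 0.34, adjusted p = 0.258). Outside that domain, Plagl1 had 3.40 and 2.31 TPM in treated embryos and 0.676 and 0.428 TPM in control embryos (1.3 ± 0.33, adjusted p = 0.231).

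Peg3 showed 3.55 and 2.84 TPM in treated embryos and 1.27 and 1.44 TPM in control embryos (0.83 ± 0.31, limma adjusted p = 0.368), and Grb10 showed 5.62 and 2.23 TPM in treated embryos and 1.51 and 0.961 TPM in control embryos (1.06 ± 0.41, adjusted p = 0.376). The number of imprinted genes called depended on the embryo libraries and their scaling. With the values as deposited, in which control 1 sums to 639063 TPM, 5 genes were called higher (Phlda2, Cd81, Cdkn1c, Slc22a18 and Plagl1). Phlda2 passed in each of the 4 fits that left out 1 library (adjusted p 0.000709 to 0.0338), in which the lone library of a group was assumed to vary like the other group, and Cd81 passed in 3 of them. Without CX-5461 embryo library 2 there were 6 higher (with Gnas and Grb10, and without Plagl1) and Snrpn was lower (−0.65, adjusted p = 0.0271), in a fit that called 2708 genes in place of 1.

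**Figure D4:**
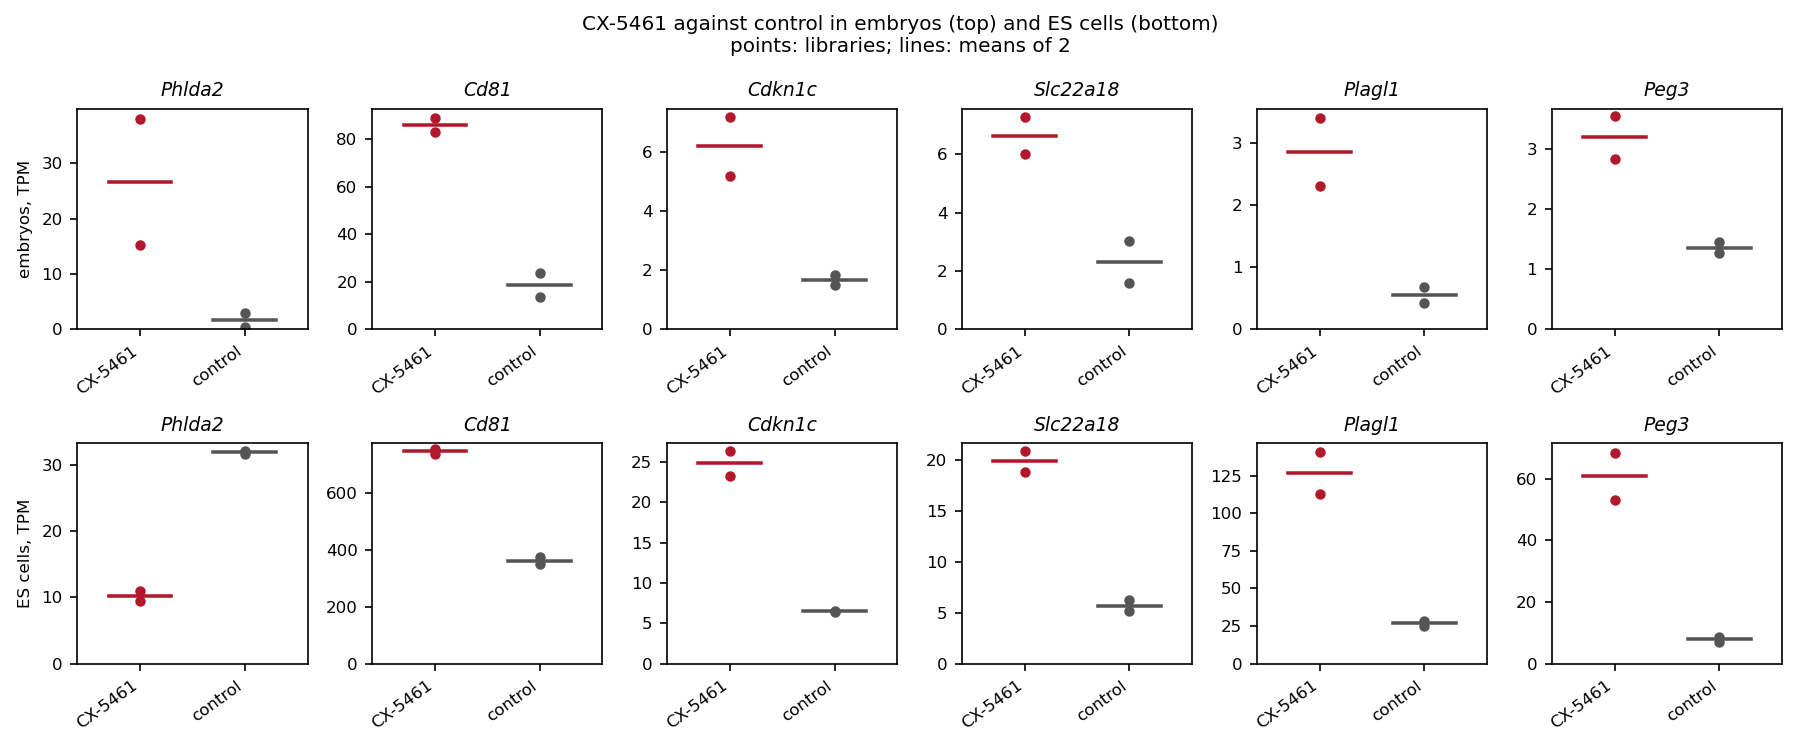
TPM of 6 imprinted genes in CX-5461-treated and control embryos (top) and ES cells (bottom), with a point for each library and a line at the mean of 2, each axis starting at 0. Phlda2 lies higher in treated embryos (15.3 and 38.0 TPM) and lower in treated ES cells (11 and 9.48 TPM) than in the controls, and the other 5 genes lie higher in treated libraries of both kinds.

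Levels in untreated cells differed in order between the 2 tables. Control ES cells had most TPM for Cd81 (373 and 348 TPM), Gnas (238 and 189 TPM), H19 (108 and 107 TPM) and Igf2 (95.8 and 104 TPM). In control embryos Snrpn was highest (222 and 195 TPM), ahead of Mcts2 (60.6 and 66.8 TPM), Commd1 (43.5 and 43.6 TPM) and Mest (34.6 and 24.5 TPM), and H19, Zim1 and Ndn were listed at 0 in both. In treated embryos H19 was at 0.315 and 0 TPM, Ndn at 0.259 and 0.107 TPM, and Zim1 at 0 in both. Snrpn had 132 and 229 TPM in treated embryos, overlapping the controls. The ES and embryo libraries came from different protocols. Fibroblast markers summed to 1186 and 1412 TPM in control ES libraries and 11.6 and 11.6 TPM in control embryos. The part of fibroblast RNA in the ES levels, such as those of H19 and Igf2, was not tested.

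A second list of 44 other imprinted genes was read in the same fits. Calls of this list were not tried under the alternatives. In ES cells 31 were tested, of which 19 were higher and 1 lower with CX-5461 (median 0.69), none was called with rapamycin (median 0.24, 6 at an unadjusted p under 0.05), and 17 were higher and 1 lower with rotenone (median 0.70). Of all genes, 42.0% were higher and 11.0% lower with CX-5461 (median 0.43), and 30.6% higher and 9.57% lower with rotenone (median 0.27). At an unadjusted p under 0.05, 1842 of all 17638 genes were higher and 509 lower with rapamycin. With CX-5461 the most changed were Begain, a gene of the Dlk1-Meg3 region (18.1 and 19.8 TPM against 1.24 and 1.98 TPM in controls, 2.95 ± 0.27, limma adjusted p = 0.000234), Tnfrsf23, a decoy receptor gene near the Kcnq1 domain (36.1 and 38.9 TPM against 6.26 and 6.54 TPM in controls, 2.38 ± 0.16, adjusted p = 7.82e-05), and Dcn (2.23 ± 0.12, adjusted p = 4.5e-05). Dcn encodes decorin, a matrix proteoglycan made by fibroblasts, and had 186 and 187 TPM with CX-5461, 138 and 152 TPM with rotenone, and 41.3 and 36.9 TPM in controls. With rotenone they were Nespas, the antisense RNA of the Gnas locus (10.6 and 7.54 TPM against 1.13 and 1.22 TPM in controls, 2.19 ± 0.24, adjusted p = 0.00146), the serotonin receptor gene Htr2a (7.63 and 7.86 TPM against 1.02 and 1.26 TPM in controls, 2.03 ± 0.15, adjusted p = 0.000554) and Dcn (1.86 ± 0.12, adjusted p = 0.000424). In embryos 19 were tested and none was called (2 at an unadjusted p under 0.05, median 0.04). Of all 13289 embryo genes, 1151 were higher and 495 lower at that unadjusted p.

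Genes that maintain imprints were also read in these fits, and their calls were not tried under the alternatives either. Of 17 maintenance factors, 8 were higher and 4 lower with CX-5461 (median 0.39), none was called with rapamycin (median 0.17, 2 at an unadjusted p under 0.05), and 9 were higher and 2 lower with rotenone (median 0.45). With CX-5461 the share called higher, 8 of 17, and the median stood near those of all genes (42.0%, median 0.43), with 11.0% of all genes lower. With rotenone the all-gene values were 30.6% higher, 9.57% lower and a median of 0.27. With rapamycin, 1842 of all 17638 genes were higher and 509 lower at an unadjusted p under 0.05. Dnmt3l, the cofactor of the de novo DNA methyltransferases, had 47.8 and 38.0 TPM with CX-5461, 9.61 and 9.11 TPM with rapamycin, 26.5 and 25.4 TPM with rotenone, and 8.57 and 7.65 TPM in controls (CX-5461 2.26 ± 0.15, limma adjusted p = 7.63e-05, rotenone 1.57 ± 0.15, adjusted p = 0.00102). Zfp445, which like ZFP57 binds imprinted control regions, had 71.4 and 99.6 TPM with CX-5461, 44.3 and 28.0 TPM with rapamycin, 68.3 and 64.6 TPM with rotenone, and 18.9 and 32.8 TPM in controls. Zfp445 rose by 1.72 ± 0.31 with CX-5461 (adjusted p = 0.00367) and by 1.38 ± 0.31 with rotenone (adjusted p = 0.0142). Zfp57 itself had 155 and 198 TPM with CX-5461, 160 and 93.8 TPM with rapamycin, 168 and 221 TPM with rotenone, and 45.0 and 98.3 TPM in controls, and rose by 1.52 ± 0.40 with rotenone (adjusted p = 0.023) and by 1.38 ± 0.40 with CX-5461 (adjusted p = 0.0233). Dppa3, which protects maternal methylation in the zygote, had 25.4 and 21.1 TPM with CX-5461, 41.5 and 47.8 TPM with rapamycin, 20.7 and 28.5 TPM with rotenone, and 76.6 and 54.6 TPM in controls. Dppa3 fell by 1.44 with CX-5461 (SE 0.22, adjusted p = 0.00175) and by 1.38 with rotenone (SE 0.22, adjusted p = 0.00451). Trim28, whose product ZFP57 recruits, was also lower in both of these treatments. It had 704 and 701 TPM with CX-5461, 1302 and 1097 TPM with rapamycin, 714 and 708 TPM with rotenone, and 985 and 1176 TPM in controls. In embryos none of the 17 was called, 1 had an unadjusted p under 0.05, and the median was 0.27. Of all 13289 embryo genes, 1151 were higher and 495 lower at that unadjusted p.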

How the data were processed

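Poly-A RNA of mES cells and pre-amplified cDNA of embryos had been sequenced in 12 libraries (6 groups of 2). By the study's methods and the labels, the authors trimmed reads with Trimmomatic, aligned them to mm10 with HISAT2, removed duplicates with Picard, kept reads with a unique match for genes and quantified genes with StringTie on GENCODE M18. The submitters' notes also name CASAVA 1.8. The deposited values are TPM, which hold no counts, so depth and counting error are unknown. Reads shared by near-identical copies are lost in such values.

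Each library was rescaled to 1000000 TPM, which changes embryo control 1 (639063 TPM) most. The log2(TPM + 1) values went into limma 3.58.1 in R 4.3.3 with a trended prior, in 1 fit of 8 ES libraries and 1 of 4 embryo libraries, two-sided, with Benjamini-Hochberg adjustment over all tested genes. Fold changes on this scale understate those of low genes. The study's count test was not used, since it needs counts. The fit was tested on simulated data. The members, lists and tests were chosen with earlier results of these data known. The naming rule gave each library's value for every listed gene called against control in ES cells whose higher group averaged 5 TPM or more, the 3 most changed called genes of each further list, and ranges or counts for the rest, and some values outside it were added after they were seen. Coordinates and overlaps come from GENCODE M21 (GRCm38), joined by identifier (53620 of 53715 matched). Scaling, filters, pseudocount, prior, fits of 2 groups alone and leaving out each library were alternatives. They were run for the counts of all genes and for the listed imprinted genes, not for calls of the further lists. Python 3.11.15 drew the figures.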

Additional observations from a re-analysis of the deposited data

Results flagged for a closer look

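For 4 of the imprinted genes tested in both tables (24 were tested in embryos), the CX-5461-treated libraries changed sides. Both lay on one side of both controls in ES cells and on the other side in embryos. Of all genes, both treated libraries lay above both controls for 57.4% in ES cells and 27.6% in embryos. They lay below both controls for 19.4% and 19.2%. The share of all genes that changed sides was not counted, so the 4 are not read as a trait of imprinted genes. The difference between ES cells and embryos was not tested. The log2 fold change with CX-5461 was −1.56 in ES cells and 3.43 in embryos for Phlda2. It was 0.64 in ES cells and −0.40 in embryos for Tssc4, 0.98 in ES cells and −0.37 in embryos for Blcap, and 1.75 in ES cells and −0.049 in embryos for Zdbf2. In the limma fits of all libraries, the ES changes of Phlda2, Blcap and Zdbf2 were called and that of Tssc4 was not. None of the embryo changes was called in these fits. The embryo differences of Tssc4 (3.91 and 6.28 TPM in treated embryos, 6.85 and 6.91 TPM in control embryos) and Zdbf2 (1.16 and 1.13 TPM in treated embryos, 1.17 and 1.27 TPM in control embryos) were small beside the Phlda2 difference.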

How the results depend on the processing

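With 2 libraries a group, the counts of genes called moved most when a library was left out. In CX-5461 against control, all genes called numbered 5223 to 9850 (9350 with all libraries; 5223 without CX-5461 library 2) and imprinted genes lower 2 to 4. Rotenone against control gave 2752 to 7938 genes (7082 with all), lowest without rotenone library 1, with 14 to 18 imprinted genes higher and 1 to 4 lower. CX-5461 against rotenone gave 1096 to 1839 genes (3900 with all), lowest without CX-5461 library 1, with 4 to 6 imprinted genes higher and 0 to 1 lower. CX-5461 against rapamycin gave 3318 to 5734 genes (6994 with all), lowest without CX-5461 library 2, with 1 to 2 imprinted genes lower. Rapamycin against control gave 3 to 365 genes (2 with all), highest without control library 2. The embryos gave 20 to 2708 genes (1 with all), highest without CX-5461 library 2, with 1 to 6 imprinted genes higher and 0 to 1 lower.

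Other settings moved fewer counts. Rapamycin called 4 genes with a pseudocount of 0.1, and 1 with no filter, with median-ratio or quantile scaling, with the replicate number as a block and with the 2 groups alone. Imprinted genes lower with rotenone numbered 2 with no filter and 1 with the 2 groups alone, and higher ones 14 under median-ratio and quantile scaling. For CX-5461 against rotenone, 1 was lower with a pseudocount of 0.1, with no filter and with a filter at 5 TPM, 5 were lower under median-ratio and quantile scaling, and 14 were higher and 5 lower with the 2 groups alone. CX-5461 against rapamycin had 4 lower under quantile scaling. Embryo fits called 0 genes with no filter, 4 with a filter at 5 TPM, 3 without the trend, 469 genes and 5 imprinted genes higher as deposited, and 92 genes and 2 imprinted genes higher (Phlda2 and Cd81) with the replicate number as a block. The log2 difference between library 1 and library 2 of a group was correlated over genes between groups. It correlated by −0.30 to 0.17 between ES groups and by 0.05 between the embryo groups, so the numbers were not taken to pair the samples. The change of Mkrn3 reversed under quantile scaling, to −0.61 in CX-5461 against control and −0.52 against rapamycin. Calls kept under every alternative that tested the gene numbered 20 of 26 for CX-5461 and 14 of 26 for rotenone against control. They numbered 3 of 11 for CX-5461 against rotenone and 16 of 24 against rapamycin. The filter at 5 TPM left out Airn, Nap1l5, Nnat, Ppp1r9a, Usp29 and Zim1, so their calls were not tried under it. The cause of these moves was not tested.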
